A study of Mus musculus with 30 samples.

Results

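The 10 genes described here were followed through cultured mouse osteoclasts: the caveolar genes Cav1, Cavin1, Cavin2 and Cavin3, the contractile genes Acta2, Tagln, Myl9 and Tpm1, and the stretch- and growth-factor-responsive genes Ankrd1 and Edn1. They were chosen by a reading of the same libraries in which several of them were much lower in multinucleated than in 2-day cultures, with no stated cut. The difference between these 2 stages is therefore given as a description and without a test. The annotation held 50686 genes, 15310 of them passed the filter on low counts, and all 10 members were among these. Osteoclasts, the bone-resorbing cells, were raised from marrow macrophages of C57BL/6J mice in medium with 25 ng/ml M-CSF plus 100 ng/ml RANKL, the factors for their survival and differentiation. The culture either lasted 2 days or went on until large multinucleated cells appeared. The study asked whether such cells differ in gene expression between donor ages and between wild-type (WT) donors and Terc-/- donors (KO), which lack the telomerase RNA. The 2-day cultures came from WT donors of 6 and 20 months. The multinucleated cultures came from WT donors of 1, 6 and 20 months and KO donors of 1 and 6 months. A set with the number 519 in its titles held further KO multinucleated cultures of 1 and 6 months (set 519). A set with a tag beginning D1 held further WT multinucleated cultures of 1 month (set D1). The labels explain neither tag, and each of the 10 groups had 3 libraries. Groups named below by genotype and age alone are the multinucleated cultures with neither tag, also called unprefixed.

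Several facts about the libraries bear on every result. Total counts were 4269798 to 12987993 in set 519 and 13182063 or more in the others. Terc had at most 2 counts in any WT library and 0 in every KO library, so its level does not check the genotype labels. Xist stood at 848 to 937 CPM (the usual depth-scaled count, here after TMM scaling) in set D1 and at most 0.432 CPM elsewhere, and Ddx3y, a gene of the Y chromosome, had 0 counts in set D1 only. Comparisons with set D1 thus also compare libraries of female and male pattern. All cultures carried macrophage markers, with a summed level of 9264 to 46540 CPM over 9 genes as group means. The summed level of 10 osteoclast markers was 3956 and 4754 CPM in the 2-day groups of 6 and 20 months. It was 21710 to 45240 CPM in the multinucleated groups of WT 6 months, WT 20 months, set D1 and set 519 at 6 months. It was 7458 CPM in set 519 at 1 month, but only 2435 CPM in WT 1 month, 2627 CPM in KO 6 months and 713 CPM in KO 1 month. By these markers the last 3 groups stood below the 2-day cultures, against what their stage label would lead one to read.

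Caveolae are small flask-shaped pits of the plasma membrane that are abundant in fibroblasts, smooth muscle, endothelium and fat cells. Cav1 encodes caveolin-1, the membrane protein of the pit, and the cavins form its outer coat, with Cavin1 required for the pit to form. Acta2 (smooth muscle actin), Tagln (transgelin), Myl9 (myosin regulatory light chain) and Tpm1 (tropomyosin) belong to the contractile apparatus of smooth muscle, pericytes and myofibroblasts. Many such genes are regulated by SRF with myocardin-related factors, which bind a CArG box. Ankrd1 (a stretch-responsive ankyrin repeat protein) is a widely used target of YAP and TEAD, and Edn1 encodes endothelin-1, a secreted peptide that constricts vessels. Osteoclast precursors are macrophages, and marrow cultures can also hold adherent stromal cells.

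Promoter sequence was examined because most of these genes moved together. RefSeq (GRCm38.p6) gave windows for 8 of the 10 members, and the 250 bases before each start were searched on both strands for the TEAD core and for the CArG box. The TEAD core searched was CATTCC. On the opposite strand it reads as its reverse complement, which is what Acta2 and Ankrd1 carry in the printed lines. Acta2 and Myl9, the 2 members most alike across groups, are shown for their CArG-like matches, Ankrd1 for its 2 TEAD cores, and Cav1 as the member that followed none of the others. Capitals mark the matches, and each line reads 5′ to 3′ on the gene's strand. The Acta2 window is chr19:34255374-34255623 (minus strand), the Myl9 window chr2:156775214-156775419 (plus, ending where the annotation's first exon begins), the Ankrd1 window chr19:36119845-36120094 (minus) and the Cav1 window chr6:17306085-17306334 (plus).
Acta2: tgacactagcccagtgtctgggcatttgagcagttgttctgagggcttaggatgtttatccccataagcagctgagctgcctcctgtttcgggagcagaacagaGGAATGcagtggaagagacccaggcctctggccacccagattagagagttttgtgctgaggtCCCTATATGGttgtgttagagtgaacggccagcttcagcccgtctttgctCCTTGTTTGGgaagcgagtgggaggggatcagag
Myl9: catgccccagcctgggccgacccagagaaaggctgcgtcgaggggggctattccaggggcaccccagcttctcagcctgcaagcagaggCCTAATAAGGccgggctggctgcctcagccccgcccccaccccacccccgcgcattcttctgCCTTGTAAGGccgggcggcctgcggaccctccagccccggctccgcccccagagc
Ankrd1: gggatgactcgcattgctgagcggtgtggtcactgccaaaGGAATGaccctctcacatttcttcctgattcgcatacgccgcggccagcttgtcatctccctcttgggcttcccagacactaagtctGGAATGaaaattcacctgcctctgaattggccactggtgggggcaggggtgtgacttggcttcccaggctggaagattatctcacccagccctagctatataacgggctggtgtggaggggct
Cav1: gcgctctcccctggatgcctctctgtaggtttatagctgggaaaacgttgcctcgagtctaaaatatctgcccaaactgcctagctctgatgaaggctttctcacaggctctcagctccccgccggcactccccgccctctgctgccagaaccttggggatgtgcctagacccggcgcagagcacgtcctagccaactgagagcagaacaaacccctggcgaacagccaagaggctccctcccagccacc
The strict CArG box was found in Myl9 alone of the 8, at -161 to -152 counted from the RefSeq start, and in 1.47% of 32851 promoter windows. A CArG box with 1 inner base other than A or T was found at -84 to -75 and -34 to -25 of Acta2 and at -99 to -90 of Myl9. It occurred in 7.2% of all windows, and more than once in 0.55%. The TEAD core was found in 5 of the 8 members (Ankrd1, Acta2, Cavin1, Edn1 and Tpm1) and in 12.6% of all windows. Ankrd1 carried 2, at -210 to -205 and -123 to -118, as did 1.02% of all windows. Cav1 and Cavin2 had none of these motifs in their windows. The windows of Cavin1, Edn1 and Tpm1 lie partly or wholly in exons of the annotation used for counting and are not printed. The members are counted as genes, some with more than 1 window, and the shares as single windows. The 2 are unlike, and whether members carry more matches was not tested. Motif matches are a description of letters, not of binding.

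Of the contractile genes Acta2, Tagln, Myl9 and Tpm1, Acta2 (ENSMUSG00000035783, GRCm38 chromosome 19, 34241090-34255336) had the highest level per length in every group but set 519 at 6 months. In 2-day cultures of 6-month donors its 3 libraries had 1746, 2037 and 1952 CPM (1912 ± 149.7, SD, n = 3). Per length this was 1073 RPKM (CPM per kilobase of exon), the 16th highest level of the 15310 genes. In 2-day cultures of 20-month donors it had 778, 840 and 817 CPM. The multinucleated libraries ranged from 50.9 to 330.5 CPM, so that the lowest 2-day library was 2.36-fold above the highest of them. Even the lowest group, set 519 at 6 months (54.8, 56.1 and 50.9 CPM), held 1525 counts in all. Between these ends stood WT 20 months (321.6 CPM), set D1 (299.7), WT 6 months (210.9), KO 1 month (205.6), KO 6 months (196.3), set 519 at 1 month (146.9) and WT 1 month (146.4). The libraries of WT 6 months and KO 1 month overlapped, as did those of KO 1 and KO 6 months and those of set 519 at 1 month and WT 1 month.

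Myl9 (ENSMUSG00000067818, chromosome 2, 156775420-156781658) followed Acta2 closely across the groups. It had 184.6, 217.8 and 209.1 CPM in 6-month and 74.7, 79.9 and 81.2 CPM in 20-month 2-day cultures. Multinucleated group means ran from 37.0 CPM in WT 20 months to 6.97 CPM in set 519 at 6 months, again with no overlap between the stages. Per length Acta2 stood 5.04 to 7.15 times above Myl9 in all 10 groups. Tpm1 (ENSMUSG00000032366, chromosome 9, 67022590-67049406), a tropomyosin made in muscle and non-muscle forms that gene counts do not separate, varied far less. It had 692.8, 680.5 and 665.8 CPM in 6-month and 461.4, 472.4 and 461.0 CPM in 20-month 2-day cultures. Set D1 (465.6, 481.9 and 453.4 CPM) overlapped the latter, and the lowest group was WT 1 month with 210.9 CPM. Acta2 exceeded Tpm1 10.2-fold per length in 6-month 2-day cultures and 2.04-fold in WT 6-month multinucleated cultures, and in set 519 at 6 months the ratio was 0.64.

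Tagln (ENSMUSG00000032085, chromosome 9, 45929619-45936058) was close to the limit of counting, with 134 counts in the 3 libraries of 6-month 2-day cultures and 9 in those of set 519 at 1 month. Its 2-day libraries had 2.65, 2.00 and 2.64 CPM at 6 months and 3.15, 2.39 and 0.962 CPM at 20 months, and its multinucleated libraries 0 to 1.20 CPM, with overlap. This level cannot be read as the abundance of its RNA. Exons of Pcsk7 and Gm48529 on the other strand overlap 1349 of the 1988 bases of Tagln exon (67.9%). The counting command records no strand option and no option to count a fragment for more than 1 gene, and featureCounts by default leaves such fragments out. Pcsk7 itself was at 45.3 to 66.9 CPM and Gm48529 at 1.35 to 3.99 CPM as group means. For Cavin3 the same holds for 374 of 1662 bases (22.5%), overlapped by Gm45667, and for the other 8 members for none. Acta2 has close paralogs (Actg2, Acta1, Actc1) with near-identical coding sequence, so its level and that of Actg2 depend on how reads that fit both were treated.

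**Figure D1:**
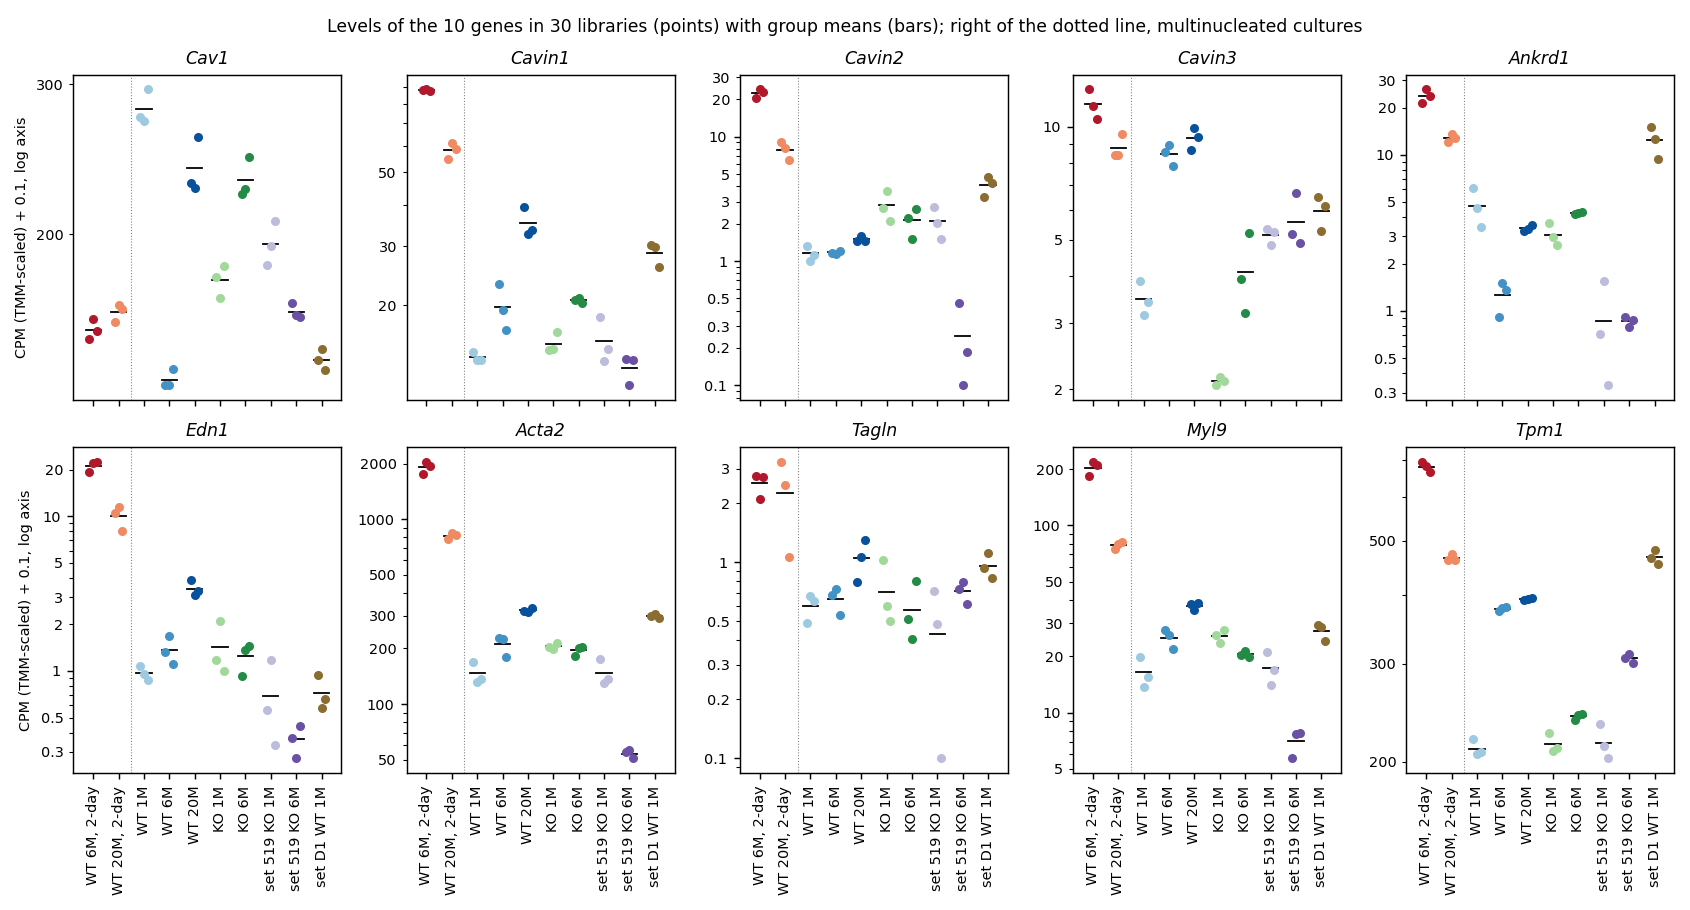
Level of each of the 10 genes in each library (points, CPM + 0.1 on a log axis) with the group mean as a bar, for the 2 groups of 2-day cultures left of the dotted line and the 8 multinucleated groups right of it (M, months). The 2-day libraries of Cavin1, Cavin2, Edn1, Acta2 and Myl9 lie above every multinucleated library, while Cav1 is highest in WT 1 month.

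Of the caveolar coat genes, Cavin1 (ENSMUSG00000004044, chromosome 11, 100956733-100970887) was the most abundant. It had 88.2, 88.4 and 87.3 CPM in 6-month and 54.5, 61.1 and 58.4 CPM in 20-month 2-day cultures. Its multinucleated group means lay between 35.1 CPM (WT 20 months) and 12.9 CPM (set 519 at 6 months). Cavin2 (ENSMUSG00000045954, chromosome 1, 51289126-51302960), a coat subunit of tissue-restricted expression, had 20.3, 23.9 and 22.9 CPM in 6-month and 8.97, 8.004 and 6.33 CPM in 20-month 2-day cultures. The highest multinucleated group was set D1 with 3.97 CPM, and set 519 at 6 months had 4, 0 and 1 counts. For both genes no multinucleated library reached a 2-day library. Cavin3 (ENSMUSG00000037060, chromosome 7, 105480083-105482300), the third coat subunit, did not follow this pattern. Its 2-day means of 11.4 CPM (6 months) and 8.68 CPM (20 months) enclosed the 9.23 CPM of WT 20-month multinucleated cultures, and its libraries overlapped between the stages. Its lowest group was KO 1 month, with 1.95, 2.05 and 2.00 CPM.

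Alone of the 10, Cav1 (ENSMUSG00000007655, chromosome 6, 17306335-17341452) did not have its highest group mean in 6-month 2-day cultures. Its 2-day libraries had 150.6, 158.7 and 153.8 CPM at 6 months and 157.6, 164.8 and 163.3 CPM at 20 months. Both the highest and the lowest group were multinucleated: WT 1 month had 274.5, 271.9 and 295.9 CPM, and WT 6 months 132.7, 132.7 and 138.7 CPM. The whole range of group means was 2.08-fold, whereas Cavin1 varied 2.71-fold among the multinucleated groups alone. The balance of the pit protein and its coat differed accordingly. Per length Cav1 exceeded Cavin1 1.83-fold in 6-month 2-day cultures and 2.91-fold in 20-month ones, and 5.17-fold (set D1) to 21.1-fold (WT 1 month) in multinucleated cultures. No library ratio of a 2-day group reached that of a multinucleated group.

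Ankrd1 (ENSMUSG00000024803, chromosome 19, 36111965-36119844) had 21.2, 26.1 and 23.7 CPM in 6-month and 11.9, 13.5 and 12.8 CPM in 20-month 2-day cultures. Set D1 overlapped the latter, with 14.9, 12.6 and 9.32 CPM. The other multinucleated groups had means between 4.62 CPM (WT 1 month) and 0.758 CPM (set 519 at 6 months). Edn1 (ENSMUSG00000021367, chromosome 13, 42301270-42307989) had 19.1, 21.8 and 22.2 CPM in 6-month and 10.3, 11.4 and 7.90 CPM in 20-month 2-day cultures. WT 20-month multinucleated cultures followed with 3.75, 3.002 and 3.16 CPM, apart from all other multinucleated groups, whose means were 1.32 CPM or less. Set D1, which was high in Ankrd1, was low in Edn1 (0.835, 0.476 and 0.561 CPM), so these 2 genes did not share an order of groups.

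Between the stages, 7 of the 10 members were lower in multinucleated cultures by more than 1 on the log2 scale at 6 months, and 6 at 20 months. Of all 15310 genes 8.49% and 4.93% were. Nothing is read from these counts, since this contrast chose the members. At 6 months the log2 differences were -4.37 ± 0.20 (SE) for Cavin2, -4.32 ± 0.20 for Ankrd1, -4.05 ± 0.20 for Edn1, -3.18 ± 0.093 for Acta2 and -3.03 ± 0.10 for Myl9. Cavin1 (-2.16) and Tagln (-2.14) followed, and Tpm1 (-0.85), Cavin3 (-0.44) and Cav1 (-0.20) differed by less than 1. At 20 months the order was similar and the sizes smaller, with -2.46 for Cavin2, -1.95 for Ankrd1, -1.57 for Edn1, -1.34 for Acta2, -1.13 for Tagln and -1.09 for Myl9. Cavin1 (-0.73), Tpm1 (-0.24), Cavin3 (0.08) and Cav1 (0.56) lay beyond. In linear terms Acta2 was 9.07-fold lower in multinucleated cultures at 6 months and 2.52-fold lower at 20 months, and Cavin2 20.7-fold and 5.51-fold lower.

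The companion genes of each pathway, none of them members, were described by the same stage difference. Of 35 actin and smooth muscle contractile genes 13 were lower by more than 1 on the log2 scale at 6 months and 8 at 20 months, with medians of -0.56 and -0.36 against -0.01 and 0.00 over all genes. For YAP and TEAD genes it was 18 and 4 of 26 tested (medians -2.02 and -0.56). Of 15 TGF-beta signalling genes 6 and 2 were lower (medians -0.67 and -0.51), and of 5 measured genes of the endothelin system 3 and 1. These counts are of falls only, and some listed genes rose. The TGF-beta receptor gene Tgfbr1 rose from 167.6 to 569.8 CPM at 6 months and from 213.1 to 448.4 CPM at 20 months. Tgfbr2 and Tgfb1 were also higher at both ages. Myof, the leading YAP and TEAD gene, rose from 636.0 to 952.2 CPM and from 712.1 to 988.5 CPM. A wider list of caveolar machinery had medians of -0.05 and -0.04 over 11 tested genes, with 2 and 0 lower by more than 1. It held Cav2 and the EHD and pacsin proteins of the caveolar neck, but also Dnm2, Cbl, Flot1 and Flot2. Within it Ehd2 went from 80.4 to 23.4 CPM at 6 months and from 55.4 to 35.4 CPM at 20 months.

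Markers of stromal cells moved with these genes. The summed level of 22 stromal and fibroblast markers was 6673 to 6985 CPM in the 6-month and 5017 to 5234 CPM in the 20-month 2-day libraries. It was 2185 to 2805 CPM in WT 6-month and 4114 to 4697 CPM in WT 20-month multinucleated libraries, 5827 to 6543 CPM in set D1, and 722 to 1337 CPM in all other libraries. Leading genes were Col1a1 and Col1a2, and none of the 22 was at 0 counts in the 6-month 2-day libraries. Smooth muscle and pericyte markers, 10 genes led by Actg2 at 2 days, summed to 552.7 to 626.0 CPM and 243.1 to 252.8 CPM in the 2-day libraries and to 37.9 to 141.0 CPM in the others. Not every gene followed this sum from 2-day to multinucleated WT cultures of the same age. Rgs5 rose, from 0.4385 to 1.726 CPM at 6 months and from 0.35 to 0.5367 CPM at 20 months. Notch3 rose from 4.816 to 8.843 CPM and Synpo2 from 8.995 to 9.507 CPM at 20 months, but both fell at 6 months. Cspg4 went from 36.65 to 27.28 CPM at 6 months and from 33.21 to 31.41 CPM at 20 months. The remaining genes were lower at both ages. The summed level of 12 endothelial markers had group means of 37.4 and 46.8 CPM in 2-day and 45.2 to 142.2 CPM in multinucleated cultures, a sum led everywhere by Vwf. The other endothelial markers did not share 1 direction from 2-day to multinucleated WT cultures of the same age, and most were at low counts. Emcn went from 0.446 to 0.121 CPM at 6 months and from 1.12 to 0.0874 CPM at 20 months, Egfl7 from 0.769 to 0.228 CPM and from 0.993 to 0.364 CPM. Kdr, at higher counts, went from 11.95 to 8.215 CPM and from 11.02 to 6.14 CPM. Pecam1 went from 1.061 to 0.9938 CPM and from 2.083 to 0.9005 CPM, and Cdh5 from 1.433 to 1.072 CPM and from 1.908 to 1.134 CPM. Erg was lower at both ages too (0.3055 to 0.01747 CPM and 0.1654 to 0.07147 CPM). Tek, Tie1 and Cldn5, at a few counts, went opposite ways at the 2 ages. Esam went up, from 0.825 to 0.967 CPM at 6 months and from 0.587 to 0.780 CPM at 20 months. Plvap went from 0.286 to 0.316 CPM and from 0.352 to 0.557 CPM. Adipocyte markers consisted of Fabp4 almost alone (7 of 8 genes under 1 CPM in each group). The part of stromal and endothelial cells in the results was not tested, and in such bulk RNA fewer cells of a type and less RNA per cell cannot be told apart.

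Members did not keep a fixed share of the stromal marker sum. Acta2 equalled 27.9% ± 2.67 (SD, n = 3) of that sum in 6-month 2-day cultures and 8.49% ± 0.584 in WT 6-month multinucleated cultures, and 15.9% ± 0.341 against 7.21% ± 0.428 at 20 months. In set D1, where stromal markers lay between those of the 2-day groups, it was 4.8%. In WT 1 month (17.7%) and KO 1 month (19.2%), with low stromal markers, it was above the share of the 20-month 2-day cultures. Cavin1 equalled 1.28% and 1.14% of the sum in the 2-day groups, 0.791% and 0.785% in the WT multinucleated groups of the same ages, and 1.68% in WT 1 month.

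**Figure D2:**
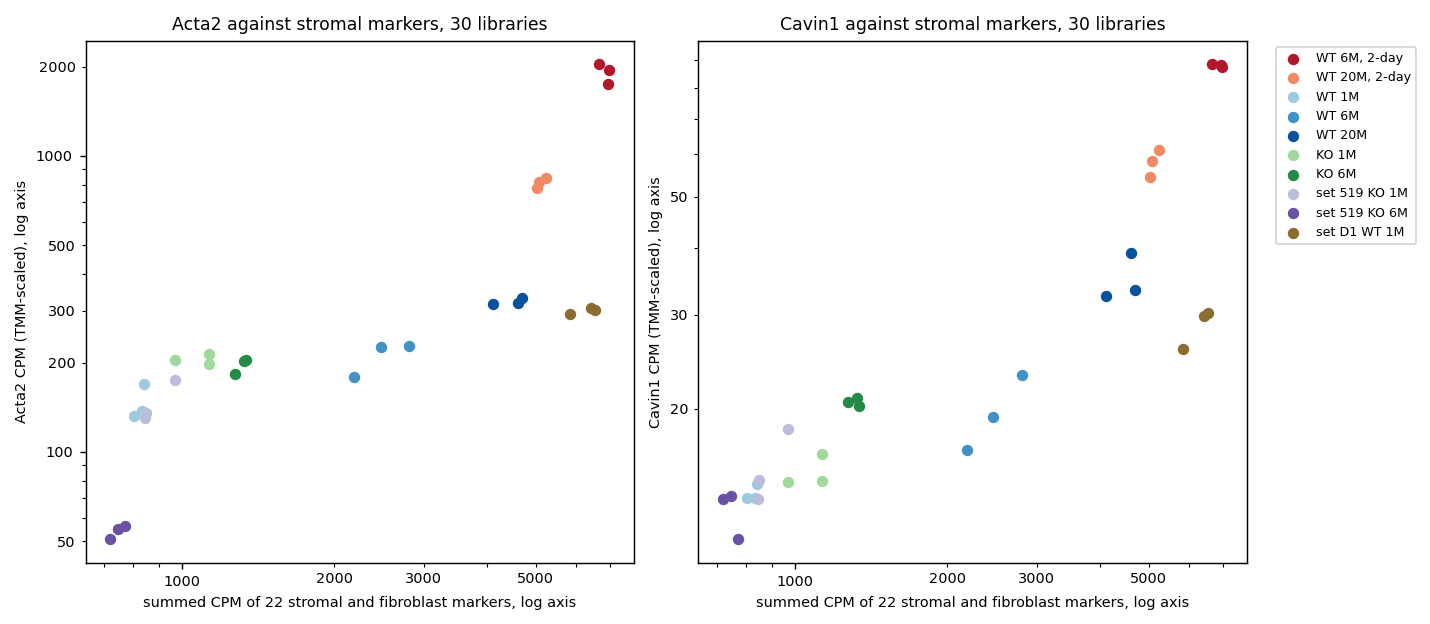
Acta2 (left) and Cavin1 (right) in CPM against the summed CPM of 22 stromal and fibroblast markers in each of the 30 libraries, both axes logarithmic, coloured by group. The 3 libraries of set D1 lie at 5827 to 6543 CPM of markers with 293 to 305.4 CPM of Acta2, far below the 2-day libraries.

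Donor age at the 2-day stage was compared in WT cultures of 20 against 6 months with edgeR's quasi-likelihood test, adjusted over all 15310 genes. The 2-day libraries of both ages also entered the contrast that chose the members. The stage falls were larger at 6 months, and choosing by them favours genes high in 6-month 2-day cultures. The choice thus favours a fall with age here. In this comparison 8 of the 10 members fell and 0 rose (0 also at an unadjusted p under 0.05 and 0 by DESeq2), where 11.3% of all genes fell and 7.48% rose. Cavin2 fell most, with a log2 fold change of -1.53 ± 0.15 (adjusted p = 1.9e-09), followed by Myl9 with -1.37 ± 0.092 (4.5e-13) and Acta2 with -1.24 ± 0.086 (9.3e-13). The 3 libraries of each age did not overlap for any of them. Edn1 fell by 1.10, Ankrd1 by 0.89, Cavin1 by 0.60 and Tpm1 by 0.55 on the log2 scale. Cavin3 fell by 0.38 (adjusted p = 0.027), a call lost when any of 4 libraries was left out (library 1 or 2 of either age), with values from -0.44 to -0.30 over the 6 omissions. Cav1 (0.07 ± 0.056, adjusted p = 0.42) and Tagln (-0.20 ± 0.30, adjusted p = 0.69) did not pass.

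Genes around the members fell as well at this stage. Of 35 actin and contractile genes 26 fell and 2 rose, with a median log2 fold change of -0.36 against -0.02 over all genes. Actg2, the enteric smooth muscle actin, fell from 321.0 to 110.9 CPM (log2 fold change -1.53), and Myocd, the smooth muscle co-activator of SRF, from 1.72 to 0.513 CPM (-1.78). Of 26 YAP and TEAD genes 18 fell and 0 rose, among them Ccdc80 (-1.14). Of the TGF-beta genes 7 fell and 2 rose, with the ligand Tgfb3 lower by 1.33 on the log2 scale. In the endothelin system the receptor Ednrb and the processing enzyme Ece1 fell, by 0.79 and 0.48. Cav2, the partner of Cav1, rose by 0.36 while Ehd2, an ATPase of the caveolar neck, fell by 0.54. Of the 22 stromal markers 12 fell and 0 rose (median -0.52), and of the 10 smooth muscle markers, some of which are also among the contractile genes, 7 fell and 0 rose (median -1.13). Their part in the members' falls was not tested.

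In multinucleated WT cultures of the same 2 ages 6 members rose and 0 fell (0 also at an unadjusted p under 0.05 and 0 by DESeq2), where 7.39% of all genes rose and 6.9% fell. The 6-month and 20-month libraries also entered the contrast that chose the members. Choosing by stage falls, which were larger at 6 months, favours genes low in 6-month multinucleated cultures. The choice thus favours a rise with age here. Ankrd1 rose from 0.817, 1.42 and 1.26 CPM to 3.16, 3.27 and 3.45 CPM (log2 fold change 1.48 ± 0.26, adjusted p = 9.8e-05). Edn1 rose from 1.23, 1.57 and 1.017 to 3.75, 3.002 and 3.16 CPM (1.38 ± 0.24, adjusted p = 8.6e-05). For both, no library of one age reached the other. Cavin1 rose by 0.84, Cav1 by 0.83, Acta2 by 0.61 and Myl9 by 0.57 on the log2 scale. Cavin2 (0.37, adjusted p = 0.45), Cavin3 (0.14, 0.51), Tpm1 (0.06, 0.46) and Tagln (0.80, 0.21) did not pass. Of 26 YAP and TEAD genes 15 rose and 1 fell, led by Amotl2 (1.24) and Ccn1 (1.14), and of 35 contractile genes 11 rose and 3 fell, with Actb, the cytoplasmic actin, lower by 0.27. Stromal markers rose at the same time, 15 of 22 with 2 lower (median 0.73), while smooth muscle markers had 5 of 10 higher and 1 lower. Their part was not tested, nor was the difference between the age changes at the 2 stages.

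**Figure D3:**
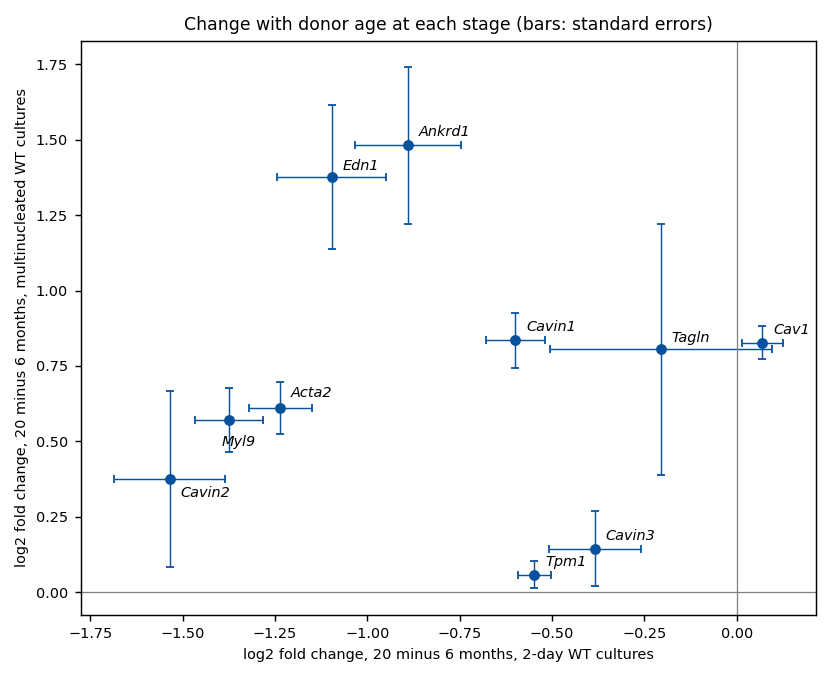
Log2 fold change of 20 against 6 months in 2-day WT cultures (x axis) and in multinucleated WT cultures (y axis) for the 10 genes, with standard errors as bars. Cavin2, Myl9, Acta2, Edn1, Ankrd1 and Cavin1 lie left of 0 on the x axis and above 0 on the y axis, and Cav1 lies near 0 on the x axis (0.07) and at 0.83 on the y axis. The choice of members by stage falls favours places left of and above 0.

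From 1 to 6 months, WT multinucleated cultures had 5 members higher and 2 lower, where 31.2% of all genes rose and 32.5% fell, so that the share of members called in all was near that of all genes. The 6-month libraries also entered the contrast that chose the members. Cavin3 rose from 3.77, 3.05 and 3.32 to 8.47, 8.86 and 7.75 CPM (log2 fold change 1.30 ± 0.14, adjusted p = 7.5e-10). Tpm1 rose by 0.84, Myl9 by 0.62, Acta2 by 0.53 and Cavin1 by 0.50. Cav1 fell by 1.06 ± 0.055 (adjusted p = 8.4e-18) and Ankrd1 by 1.95 ± 0.24 (adjusted p = 1.5e-08), from 6.03, 4.49 and 3.36 CPM to 0.817, 1.42 and 1.26 CPM. Thus the pit protein went down while 2 coat genes went up in these libraries. The WT 1-month libraries of set D1 gave another picture. Cav1 (142.3 CPM) and Myl9 (27.35) overlapped WT 6 months there. Cavin1 (28.68 CPM), Acta2 (299.7) and Tpm1 (467.0) stood above WT 6 months (19.72, 210.9 and 377.3). Cavin3 (5.87 CPM) stayed below and Ankrd1 (12.27) above WT 6 months. Set D1 against WT 6 months was not tested, and set D1 has a female pattern. Among contractile genes 20 of 35 rose, led by Mylk, the kinase that activates myosin light chain (2.16), and Vcl, the adhesion protein vinculin (1.82; other genes overlap 39.9% of its exon length), while Actb fell by 0.78. Osteoclast markers rose in 10 of 10 and stromal markers in 20 of 22 between these groups, and their part was not tested.

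Genotype at 1 month was compared in libraries that took no part in choosing the members. In KO against WT, 3 members rose and 3 fell, where 20.7% of all genes rose and 20.8% fell. Cavin2 rose from 1.23, 0.907 and 1.024 to 2.58, 3.54 and 2.00 CPM (log2 fold change 1.34 ± 0.25, adjusted p = 5.1e-05). Myl9 rose by 0.66 ± 0.11 (1.4e-05) and Acta2 by 0.49 ± 0.088 (2.5e-05), both without overlap of libraries. Cav1 fell by 0.67 ± 0.055 (adjusted p = 5.9e-12), from 274.5, 271.9 and 295.9 to 177.8, 168.3 and 183.3 CPM. Cavin3 fell by 0.76 (0.00072) and Ankrd1 by 0.61 (0.015). The call on Ankrd1 was lost without KO library 4 (-0.49, adjusted p = 0.094) or without WT library 1 (-0.38, adjusted p = 0.16), and in a fit of only the compared groups (adjusted p = 0.066). In KO cultures of set 519 set against the same WT libraries, where 27.2% of genes rose and 29.8% fell, Cav1 (-0.53), Ankrd1 (-2.19) and Cavin2 (0.94) kept their direction and call. Acta2 (0.00) and Myl9 (0.04) lost theirs, and Cavin3 turned to 0.56 (adjusted p = 0.0088).

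With the WT libraries of set D1 in place of the unprefixed ones, 38.2% of all genes rose and 35.5% fell. Cav1 was then higher in KO (0.31), and Cavin1 (-0.91), Cavin2 (-0.56), Acta2 (-0.54) and Tpm1 (-1.12) were lower, while Myl9 (-0.10, adjusted p = 0.44) did not pass. Cavin3 and Ankrd1 kept their direction, and Edn1 became higher (0.99). That comparison is also one between male- and female-pattern libraries. All 10 osteoclast markers were lower in KO than WT at 1 month (median log2 fold change -2.16), 15 of 22 stromal markers were higher (0.37), and 9 of 9 macrophage markers were higher (0.66). The part of this difference in culture makeup was not tested. Of the companion lists, 19 of 26 YAP and TEAD genes rose and 1 fell, with F3 (tissue factor) higher by 1.42 and Dock5 lower by 1.13. Of 11 genes of the caveolar machinery list 7 rose and 0 fell, among them Cavin4, the muscle cavin (0.793 to 2.15 CPM).

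At 6 months, KO against WT again had 3 members higher and 3 lower, where 30.5% of all genes rose and 29.5% fell. The WT libraries here also entered the contrast that chose the members. Ankrd1 rose from 0.817, 1.42 and 1.26 to 4.10, 4.13 and 4.20 CPM (log2 fold change 1.81 ± 0.25, adjusted p = 9.7e-08). Cav1 rose by 0.78 ± 0.055 (2.9e-14), from 132.7, 132.7 and 138.7 to 222.9, 226.0 and 246.2 CPM, and Cavin2 by 0.91 ± 0.27 (0.0037). Cavin3 fell by 1.06 (3.8e-08) and Tpm1 by 0.64 (3.4e-14). Myl9 fell by 0.29 (0.023), a call lost on leaving out any of WT library 2 or 3 or KO library 1 or 3, with values from -0.38 to -0.22 over the 6 omissions. Acta2 (-0.10 ± 0.087, adjusted p = 0.32), Cavin1 (0.07), Edn1 (-0.13) and Tagln (-0.20) did not pass. Osteoclast markers were lower in 10 of 10 (median -2.86) and stromal markers in 18 of 22 (median -0.96) in KO, and their part was not tested.

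Set 519 gave another picture at 6 months against the same WT libraries, where 25.7% of all genes rose and 25.9% fell. There 1 member was higher and 7 were lower. Cav1 stayed higher (0.27), Cavin3 (-0.65), Myl9 (-1.86) and Tpm1 (-0.30) stayed lower, and Acta2 (-1.97) and Edn1 (-2.15) became lower. Cavin2 turned to -2.57 and Cavin1 to -0.58, and Ankrd1 to -0.61, which did not pass (adjusted p = 0.24). The direction of KO against WT at 6 months thus held in both KO sets for Cav1, Cavin3, Myl9 and Tpm1.

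The difference between the genotype effects at 6 and 1 month was tested as an interaction, again with WT 6-month libraries that took part in the choice. It passed for 5 members, 2 positive and 3 negative, where 27.1% of all genes were positive and 21.6% negative. Ankrd1 (2.42 ± 0.32, adjusted p = 1.1e-07) and Cav1 (1.45 ± 0.078, adjusted p = 1.6e-16) were lower in KO at 1 month and higher at 6 months. Myl9 (-0.94 ± 0.16), Tpm1 (-0.67 ± 0.065) and Acta2 (-0.59 ± 0.12) were less high, or lower, in KO at 6 months than at 1 month. Cavin1, Cavin2, Cavin3, Edn1 and Tagln did not pass. Of 22 stromal markers 18 were negative and 0 positive in the same test (median -1.62), and of 10 smooth muscle markers 7 were negative and 1 positive (-0.59), and their part was not tested. The directions given here are those of the unprefixed libraries. Cav1 was higher in KO already at 1 month against WT set D1 (0.31), and Ankrd1 was at -0.61 (adjusted p = 0.24) at 6 months with KO set 519.

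Within KO, 6 against 1 month could be read in 2 sets, neither of which entered the choice of members. In the unprefixed libraries 4 members rose (19.7% of all genes did) and 1 fell (17.8%). Cavin3 rose from 1.95, 2.05 and 2.00 to 3.82, 3.09 and 5.12 CPM (log2 fold change 1.01 ± 0.17, adjusted p = 1.5e-05). Cavin1 rose by 0.43, Cav1 by 0.39 and Tpm1 by 0.16. Myl9 fell by 0.33 (adjusted p = 0.017), a call lost without KO 1-month library 4 or KO 6-month library 3. In set 519 only Tpm1 rose (0.50 ± 0.048), while Cavin2, Acta2, Myl9 and Cav1 fell, where 19.2% of all genes rose and 13.2% fell. Acta2 fell from 175.0, 129.8 and 135.8 to 54.8, 56.1 and 50.9 CPM (-1.45 ± 0.10, adjusted p = 1.3e-13), and Myl9 by 1.28 ± 0.18. Cavin2 went from 17, 25 and 6 counts to 4, 0 and 1 (-3.47 ± 0.57, adjusted p = 7.2e-06), a size that rests on 5 counts and was -4.99 without set 519 6-month library 2. Cav1 fell by 0.26 in set 519 and rose by 0.39 in the unprefixed set, a difference that was not tested. Tpm1 (higher) and Myl9 (lower) were called in the same direction in both sets. The call on Tpm1 in the unprefixed set was lost in a fit of only the compared groups (adjusted p = 0.057). Osteoclast markers rose in 10 of 10 in both sets. Smooth muscle markers had 5 of 10 lower and 1 higher in set 519 (median -1.33) and 2 of 10 lower, 2 higher, in the unprefixed set. Their part was not tested.

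KO cultures of the same age and stage in the 2 sets were not alike. At 1 month set 519 had Cavin3 higher by 1.32 and Cav1 by 0.14, and Ankrd1 (-1.58), Myl9 (-0.62) and Acta2 (-0.49) lower, where 21.9% of all genes were higher and 28.2% lower. Ankrd1 was at -2.68 without set 519 library 3, and without that library Edn1 passed as lower too (-1.77, adjusted p = 0.029). The call on Cav1 was lost without KO library 1 or 2 or without set 519 library 3 or 4. At 6 months 7 members were lower in set 519 and 2 higher, where 26.5% and 22.6% of all genes were. Ankrd1 (-2.42), Edn1 (-2.02), Acta2 (-1.87) and Myl9 (-1.57) were among the lower ones. Cavin2 was lower as well (-3.47), a size that rests on 5 counts in set 519 and was -4.96 without its library 2 and -3.06 without its library 4. Acta2 stood at 54.8, 56.1 and 50.9 CPM against 182.7, 202.2 and 204.2 CPM. Cavin1 and Cav1 were lower by 0.65 and 0.52, Tpm1 was higher by 0.35, and Cavin3 was higher by 0.40 (adjusted p = 0.043), a call lost without KO library 1 or 2 or set 519 library 2 or 3. Contractile companions went the same way at 6 months, with 18 of 35 lower and 4 higher, among them Cnn1, the smooth muscle calponin, from 9.91 to 2.30 CPM. The YAP target Ccn1 went from 19.6 to 4.89 CPM. Markers of other cells moved with the sets. Osteoclast markers were higher in set 519 in 10 of 10 at 1 month (7458 against 713 CPM summed) and in 10 of 10 at 6 months (27320 against 2627 CPM). Stromal markers were lower in 7 of 22 and higher in 1 at 1 month, and lower in 13 and higher in 2 at 6 months (746.6 against 1311 CPM). Smooth muscle markers were lower in 2 of 10 and higher in 1 at 1 month, and lower in 6 and higher in 0 at 6 months (42.6 against 84.01 CPM). Their part was not tested. What the number 519 stands for is unknown, and set, depth and culture makeup cannot be told apart.

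Set D1 against the other WT cultures of 1 month gave 7 members higher and 1 lower, where 37.5% of all genes were higher and 36.9% lower. Ankrd1 stood at 14.9, 12.6 and 9.32 against 6.03, 4.49 and 3.36 CPM (log2 fold change 1.43 ± 0.17, adjusted p = 2.6e-09). Cavin2 was higher by 1.90 ± 0.24, Tpm1 by 1.15, Cavin1 by 1.05, Acta2 by 1.03, Cavin3 by 0.81 and Myl9 by 0.75. Cav1 was lower by 0.98 ± 0.055 (adjusted p = 2.8e-17), and Edn1 (-0.43, adjusted p = 0.27) and Tagln (0.76, adjusted p = 0.10) did not pass. Stromal markers were higher in 21 of 22 (median 3.09) and osteoclast markers in 9 of 10 (median 4.25). The part of these cell types in the members' differences was not tested, and set, sex pattern and culture makeup cannot be told apart.

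**Figure D4:**
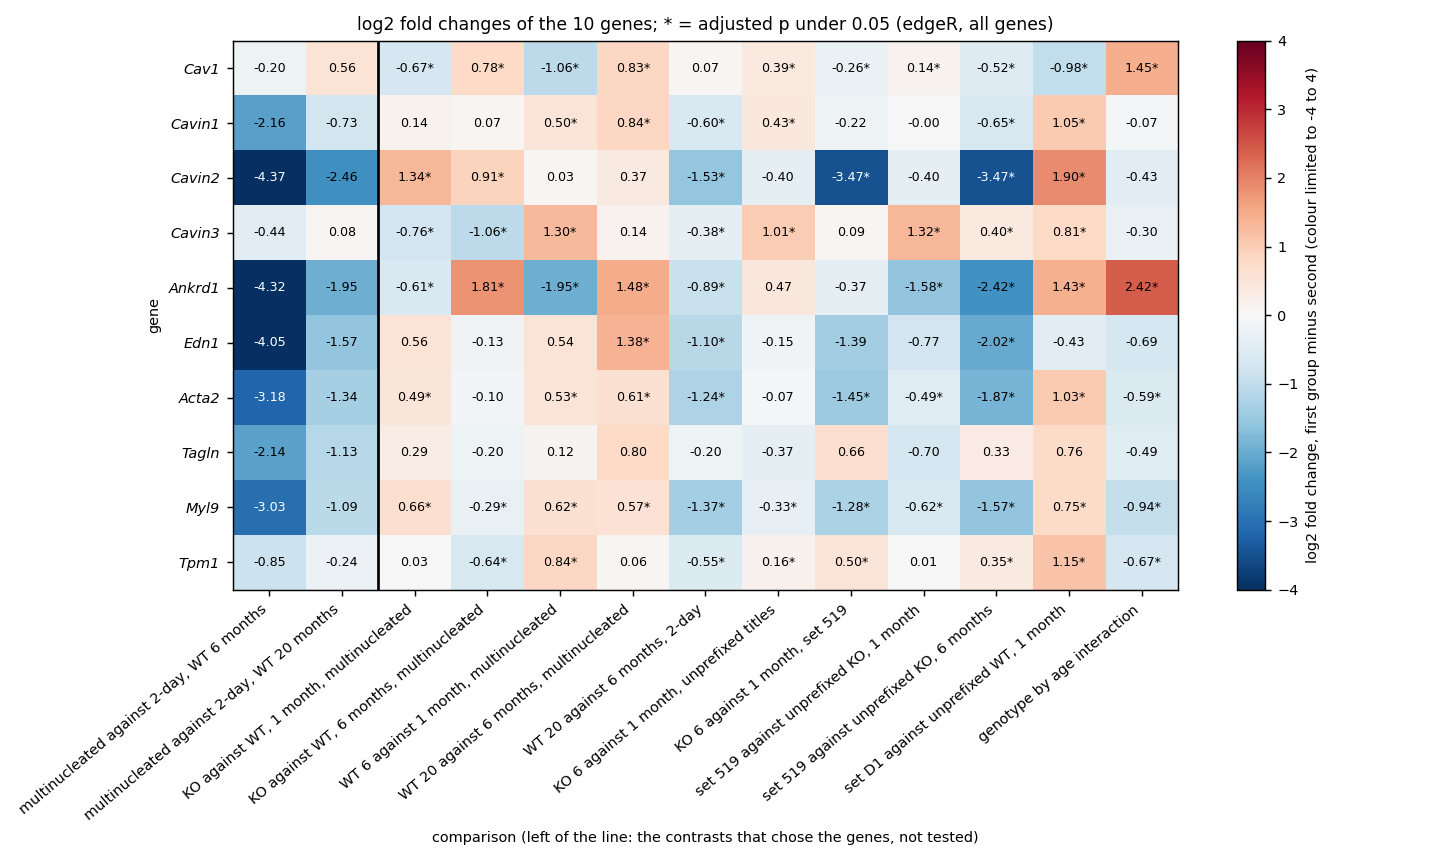
Log2 fold changes of the 10 genes (rows) in the 13 comparisons (columns), with red for higher and blue for lower in the first-named group and an asterisk for an adjusted p under 0.05 in edgeR. The 2 columns left of the black line are the stage contrasts that chose the genes and carry no test. Cavin2 reaches -4.37 there, and Cav1 changes sign between comparisons in which Acta2 and Myl9 share theirs.

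Across the 10 group means of log2 CPM, which is a description over few groups that share libraries' makeup, Acta2 and Myl9 had a Pearson correlation of 0.995, and 0.984 over the 8 multinucleated groups. Cavin1 was closest to Acta2 (0.951) and Cavin2 likewise (0.939), above the 0.827 between Cavin1 and Cavin2. Cav1 was negatively correlated with each of the other 9, from -0.10 with Ankrd1 to -0.58 with Tpm1, while over the 8 multinucleated groups these values ran from -0.54 (Tpm1) to 0.35 (Edn1). Of 11065 genes compared, those most like Acta2 were Cnn1 (0.997), Jph2 (0.994), Tpm2 (0.990), Actg2 (0.987) and Mcam (0.987). Cnn1 had 88.3 CPM in 6-month 2-day and 10.99 CPM in WT 6-month multinucleated cultures, and Tpm2 242.6 and 35.4 CPM. Among the 5 most like Cavin1 were Plekhg2 (0.981), Ajuba, Lurap1l and Nexn (0.976), and most like Edn1 were Tgfb3 (0.977), Csrp2, Stbd1, Pdgfd and Ctnnd1 (0.969). Ankrd1 had Trip6, Mex3b, Tpm4, Creb3l1 (each 0.941) and Glipr2 (0.937). The closest genes to Cav1 reached only 0.797 (Rfxap) to 0.787 (Otud5), with Cdc42ep4, Sap30 and Exo5 between.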

How the data were processed

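RNA was measured in 30 libraries. The authors deposited whole-number counts per gene, not normalized; per the file headers they were made with featureCounts 1.6.0 from paired reads over exons of Ensembl 88 (GRCm38), with no strand, multimapping or multi-overlap option recorded. The submitters' processing notes name HTSeq and mm10 instead. The aligner version is not given in the sources used here. The labels do not say that replicates came from separate animals or cultures, so a p-value reflects no more than the scatter among the libraries given, possibly a technical one.

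From these counts edgeR 4.0.16 (R 4.3.3) gave TMM-scaled CPM, RPKM (exon length of the files) and the quasi-likelihood test, fitted to all 30 libraries with a separate coefficient for every group, and Benjamini-Hochberg adjustment over the 15310 genes kept by filterByExpr (threshold 0.05). The ± after a log2 fold change is its standard error. The fit was tested on simulated counts for the comparison of genotypes at 1 month: of 50 genes changed at each of 1.5-, 2-, 4- and 8-fold, 100% were recovered. This recovery need not hold for members of low count such as Edn1 and Tagln. In that comparison Edn1 differed 1.47-fold (0.872 CPM in WT, 1.32 CPM in KO) and did not pass in edgeR (adjusted p = 0.14). Counts of replicate pairs differed by more than sampling noise (chi-square per degree of freedom 1.28 to 22.3). Symbols matched 99.4% of gene identifiers. Levels are compared between genes only per length. Alternatives were DESeq2's size factors and test (DESeq2 1.42.0), no filter, only the compared groups, a replicate block, each library left out, and the other title sets. The members and all lists were chosen with earlier results of these data known. Named are all members, up to 2 companion genes per list and direction with the largest fold and at least 1 CPM, and the 5 genes most like each of 5 members; some genes under this rule are not reported here.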

Additional observations from a re-analysis of the deposited data

Results flagged for a closer look

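The genotype effect (KO minus WT) differed between 6 and 1 month in the interaction test for 5 genes. On the log2 scale the difference between the genotype effects was 2.42 for Ankrd1, 1.45 for Cav1, -0.94 for Myl9, -0.67 for Tpm1 and -0.59 for Acta2.

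For 7 genes, every WT multinucleated library of 20 months lay above those of 6 months and every 2-day library below, a difference between the stages that was not tested. Of these, Cavin2 (0.37, adjusted p = 0.45) and Tpm1 (0.06, adjusted p = 0.46) did not pass the edgeR test in multinucleated cultures. The multinucleated change less the 2-day change was 2.47 for Edn1, 2.37 for Ankrd1, 1.94 for Myl9, 1.91 for Cavin2, 1.85 for Acta2, 1.43 for Cavin1 and 0.61 for Tpm1. Each value equals the stage change at 20 months less the stage change at 6 months. Those 2 stage contrasts chose the members, so nothing is read from these sizes or from the count of 7 genes. The share of all genes with this pattern was not computed.

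Cav1 was lower in multinucleated than 2-day cultures at 6 months and higher at 20 months, a difference of -0.76 between the 2 log2 changes that was not tested. Its change from 1 to 6 months in KO cultures was upward in the unprefixed set and downward in set 519, a difference of 0.66 that was not tested.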

How the results depend on the processing

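DESeq2's size factors and DESeq2's test changed no call on a member and no count by over 1.5 times, and the median of all genes moved by at most 0.06 on the log2 scale between the 2 scalings. Scaling by library totals moved it by up to 0.12 (set 519 against unprefixed KO at 1 month) and moved 32 of 100 group levels of the members by more than their SD. Without a filter, and with only the compared groups fitted, the members higher in set 519 against unprefixed KO went from 2 to 1 at 1 month and from 2 to 1 at 6 months. With KO libraries of set 519, 1 member was higher and 7 lower in KO at 6 months. Of all genes 25.7% rose and 25.9% fell there. Cavin1 was at -0.58, Cavin2 at -2.57 and Ankrd1 at -0.61, and at 1 month Cavin3 was at 0.56. With WT libraries of set D1, 6 members were lower in KO at 1 month, where 35.5% of all genes fell and 38.2% rose. Cav1 was at 0.31, Cavin1 at -0.91, Cavin2 at -0.56, Acta2 at -0.54, Myl9 at -0.10 and Tpm1 at -1.12. The cause was not tested.

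Leaving out 1 library at a time, the members lower in KO at 6 against 1 month ranged from 0 to 1 (unprefixed). The members higher in set 519 ranged from 1 to 2 at 1 month and from 1 to 2 at 6 months. The replicate block changed no call on a member. It left, for example, 3 members higher and 3 lower in KO at 1 month, and 8 lower in 2-day cultures at 20 months. The labels do not say whether equal numbers mark pairs, and 3 libraries per group are too few to decide it. Deviations of same-numbered libraries correlated between -0.15 and 0.26, and in set 519 only 1 of 3 libraries correlated best with its own number. Low counts limit Tagln in all groups, where exon overlap also bears on its level, and Cavin2, Edn1 and Ankrd1 in set 519. Counts were also low in deeper groups. Over 3 libraries Edn1 had 34 in set D1 and 57 in WT 1 month, and Cavin2 61 in WT 6 months and 69 in WT 1 month.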
